A study of Danio rerio with 24 samples.

Results

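Normal development was followed from 18 to 24 h post-fertilization (hpf) in whole zebrafish embryos from adults fed a vitamin E (VitE) sufficient (E+) diet. The pools of the comparison were set by the sample labels. They were the 4 E+ pools at 24 hpf against the 4 E+ pools at 18 hpf, 8 of the 24 pools of the series. The comparison itself was chosen with earlier results of these data known. Each pool held 10 embryos of the Tropical 5D strain from group spawning, chosen as morphologically normal and as having reached the somite and pigment landmarks of its time point. Other groups were set beside this comparison: the 4 E+ pools at 12 hpf and the 4 E– pools each at 18 and 24 hpf. Parents of E– embryos were fed a VitE deficient diet. All 24 pools, the 4 E– pools at 12 hpf among them, were fitted together. The filter on low counts, the scaling and the estimate of the spread behind each call therefore drew on all of them. RNA was copied from its poly(A) tail, so that a read counts a transcript near its 3′ end, and levels are given as CPM, the usual unit of read counts relative to the scaled size of each library. A gene was called differentially expressed (DE) at a Benjamini–Hochberg false discovery rate (FDR) under 0.1 in edgeR's quasi-likelihood test, and log2FC is the log2 ratio of 24 hpf over 18 hpf unless another pair is named. The labels do not say whether each pool had its own spawning, so p-values measure only the spread between these pools, which may be technical.

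During these hours the zebrafish embryo passes from the segmentation period to the pharyngula period. The tail bud adds its last somites from presomitic mesoderm, a tissue in which a clock of oscillating Notch and her genes sets the somite borders. Meanwhile fast muscle fibres fill the earlier somites, the heart tube beats, primitive red blood cells enter circulation, the first neurons lay out axons, the lens separates from the ectoderm and pigment first appears.

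The 8 libraries held 12361569 to 19733049 gene counts per pool at 18 hpf and 13381870 to 19311530 at 24 hpf, so a gene at 1 CPM rested on more than 10 reads in each pool. Reads that did not map made up 13.2% of E+ 18 hpf replicate 2 and 9.09% to 9.26% of the other 18 hpf pools. The most abundant gene, ENSDARG00000080337, which has no symbol in the table used, took 30.8% ± 1.87 of gene counts at 18 hpf and 26.4% ± 1.1 at 24 hpf (SD, n = 4 pools, two-sided exact permutation p = 0.0286, the smallest that 4 against 4 pools allow, and 0.2 after adjustment over 7 library measures). Pools of the same age differed in genes that change with age. A set of 481 genes was called at least 2-fold higher at 24 hpf in the separate E– pools, with a mean of at least 5 CPM in the higher E– group. For 52.6% of these genes E+ 24 hpf replicate 3 had the highest value of its group, and for 9.98% replicate 4, where equal pools would each have 25%. At 18 hpf replicate 3 had the highest value for 42%. The part of these differences within groups in the results was not tested beyond leaving out each pool in turn. Known stage markers were set beside the ages in the labels. The tail bud genes msgn1, tbx16 and her7 fell from 18 to 24 hpf. The pigment genes DCT and pmela, the globin hbae3 and the cardiac gene MYL7 rose. Tests were chosen with earlier results of these data known, and these genes are also results below, so this is no independent check. Not every marker of the set was called. The muscle genes myhz1.1 and pvalb1 and the neuronal genes ELAVL3 and ELAVL4 rose and tfa fell. Those not called included TYR, he1.1, ctslb, MPEG1 at ENSDARG00000043093, LCP1, a SNAP25 locus, and HBE1 at ENSDARG00000045143 and ENSDARG00000069734. SNAP25 and HBE1 were also called higher at other loci. Pool values are given in the order of replicates 1 to 4.

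Of 19597 genes with enough reads to be tested, 2566 (13.1%) were higher and 2297 (11.7%) lower at 24 hpf. The larger changes were mostly upward, with 1220 genes (6.23%) called at least 2-fold higher and 367 (1.87%) at least 2-fold lower. The median log2FC over all tested genes was 0.002, and the middle 50% of genes lay between -0.28 and 0.35. Within each of the 2 sequencing lanes, 2 pools of each age against 2, the difference had the sign of the call in both lanes for 2562 of the 2566 higher and 2296 of the 2297 lower genes. These genes had been called on the same pools, so near-complete agreement follows from the calls and is no separate support for them. Over all tested genes, every 24 hpf pool lay above every 18 hpf pool for 2519 genes and below for 2108. Where called genes are described below as not overlapping or fully apart, this restates the same pools and is no separate support for the call. In whole embryos, fewer cells of a type and less RNA per cell cannot be told apart. Gene lists for 39 tissues and processes were set beside the shares over all genes, 13.1% higher and 11.7% lower. Those shares stand beside every list count below, also where they are not repeated. List counts are of tested members, which passed the filter on low counts, and not of all genes of a list. Members of the lists were chosen with earlier results of these data known, so the list counts and their ranking are descriptive only. In 27 lists more members were called higher than lower, while 10 had more called lower. The highest shares of tested members called higher were in the fast muscle list (41 of 50), the mitochondrially encoded genes (9 of 13), the lens list (20 of 29) and the neuronal list (53 of 79). Without E+ 18 hpf replicate 2, 6 of 13 mitochondrially encoded genes were called higher. The highest shares called lower were in the posterior hox list (13 of 23), the anterior and central hox list (11 of 22) and the presomitic mesoderm list (20 of 42).

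**Figure D1:**
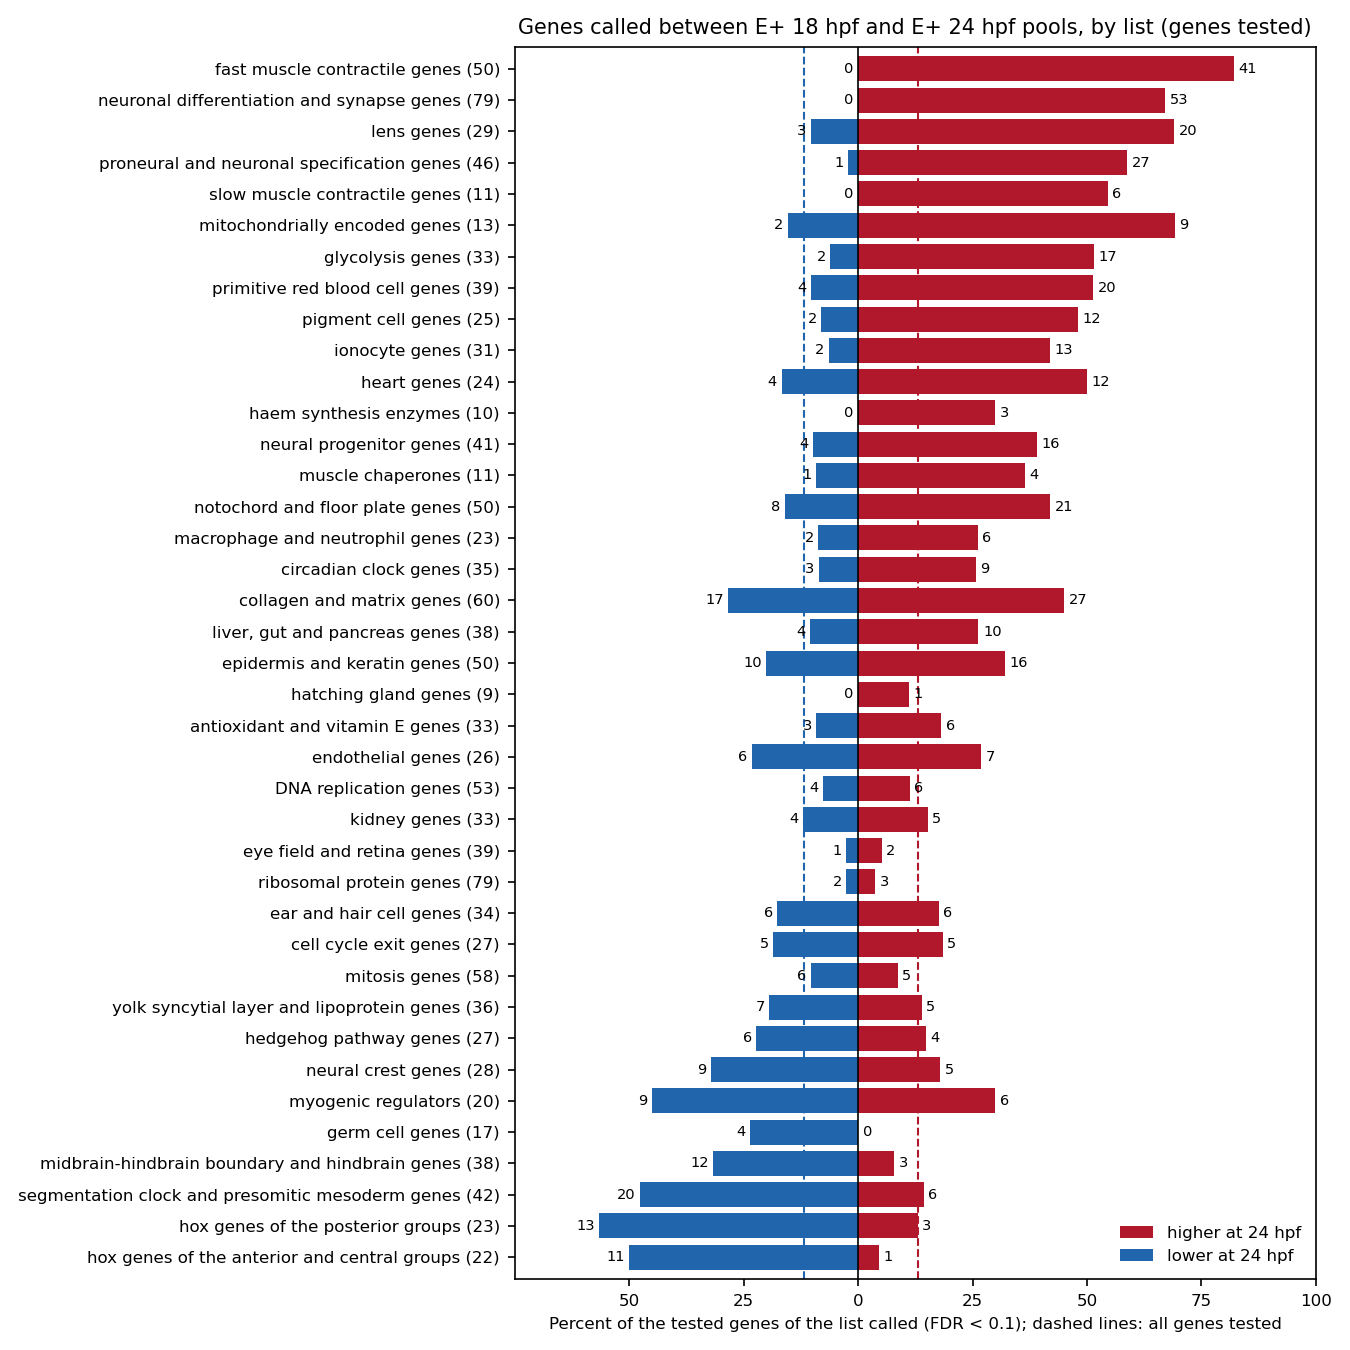
Percent of the tested genes of each list called higher (red, to the right) or lower (blue, to the left) in the E+ 24 hpf pools than in the E+ 18 hpf pools, with the number of genes called beside each bar and the number tested in parentheses. Dashed lines mark the shares over all genes tested, 13.1% higher and 11.7% lower, and fast muscle contractile genes reach 41 of 50.

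Contractile genes of fast skeletal muscle had the highest share of members called higher among the 39 lists. Of 51 genes matched to this list 50 were tested, 41 rose, none fell, and the median log2FC was 2.19 against 0.002 over all genes. Parvalbumins, the calcium buffers of fast fibres, led the list. The parvalbumin pvalb1 (ENSDARG00000037789) was at 2.72, 5.30, 3.83 and 5.91 CPM in the 18 hpf pools and at 520.4, 465, 882 and 394 CPM in the 24 hpf pools. Every 24 hpf pool was far above every 18 hpf pool, and the log2FC was 6.97 ± 0.31 (SE, FDR = 5.1e-19). Its relative pvalb4 (ENSDARG00000024433) was almost unread at 18 hpf, with 0.155, 0.371, 0.362 and 0.455 CPM, and stood at 44.4, 47.0, 64.2 and 36.0 CPM at 24 hpf. The log2FC of pvalb4 was 7.09 ± 0.32 (SE, FDR = 7.4e-19) and that of pvalb2 was 6.34 ± 0.26 (SE, FDR = 5.6e-20).

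Several thin and thick filament genes rose with them. Among the troponin genes, TNNI2 (ENSDARG00000029069), the inhibitory subunit of fast fibres, had 1.79, 3.23, 3.62 and 2.53 CPM at 18 hpf, then 263, 290.4, 359.7 and 263 CPM at 24 hpf, without overlap (log2FC 6.70 ± 0.23, SE, FDR = 5.7e-22). Troponin T of fast fibres was read from TNNT3 genes with a shared symbol, and TNNT3 (ENSDARG00000068457) went from 8.94, 9.91, 12.1 and 10.0 CPM to 216, 209.6, 311 and 212 CPM (log2FC 4.53 ± 0.15, SE, FDR = 2.1e-22). Replicate 3 was the highest 24 hpf pool for both troponin genes. The fast myosin heavy chain myhz1.1 (ENSDARG00000067990) was already present at 18 hpf, with 34.6, 34.5, 48.3 and 36.1 CPM, and reached 669, 662, 811 and 605 CPM. Its log2FC was 4.16 ± 0.22 (SE, FDR = 3.9e-17), and its tandem neighbours myhz1.2 and myhz1.3 had values of 4.92 and 2.71. Reads from such near-identical copies may have been exchanged between them, or tallied apart as multimapping and not counted for any gene. The fast regulatory light chain gene MYL11, also read at more than 1 locus, rose from 244 to 2103 CPM (mean of 4 pools) at ENSDARG00000053254 and from 5.09 to 129.7 CPM at ENSDARG00000002589.

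The muscle list also held genes of calcium handling and energy supply. The calcium pump of the sarcoplasmic reticulum, atp2a1, went from a mean of 214 to 1904 CPM (log2FC 3.15, FDR = 1.6e-12), and the creatine kinases ckma and ckmb had log2FC of 3.46 and 3.37. Genes of the sarcomere frame that were abundant at 18 hpf rose too: the log2FC was 1.60 for nebulin (NEB), 0.98 for the titin gene TTN at ENSDARG00000028213 and 2.1 for the actin gene actc1b. The 9 tested genes of the list that were not called included ACTA1 at ENSDARG00000036371 (230.4 to 299 CPM, FDR = 0.21, or 9.7e-05 with the 8 pools alone) and the myosin heavy chain gene myhb (2.66 to 2.15 CPM).

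Slow muscle genes had 11 tested members, of which 6 rose and none fell (median log2FC 0.70). The RYR1 genes of this list are also counted in the fast muscle list. Symbols such as RYR1 and CASQ1 were matched at several loci each, so copies that are not particular to slow fibres may be counted. Calsequestrin, which stores calcium in the sarcoplasmic reticulum, had the largest values, with log2FC of 4.38 ± 0.25 (SE, FDR = 4.9e-16) at CASQ1 (ENSDARG00000038716). The slow troponin C gene TNNC1 (ENSDARG00000037539) was at 57.9, 53.3, 63.2 and 54.2 CPM at 18 hpf, then 173, 189.6, 192 and 168 CPM at 24 hpf, and the groups did not overlap. The defining slow myosin heavy chain, smyhc1, was at 465 ± 22.5 and 659 ± 21.6 CPM (mean ± SD, n = 4) and was not called (FDR = 0.17), although its pools did not overlap between the groups and a fit to the 8 pools alone called it higher (FDR = 9.9e-07). PROX1, a transcription factor of slow fibres and of lens, rose by a log2FC of 0.65.

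Of 20 tested myogenic regulators, which start the muscle programme or act in myoblast fusion, 9 fell (45%) and 6 rose (30%). Over all genes 11.7% fell and 13.1% rose. The median log2FC of the list was -0.07. The early determination factor MYF5 (ENSDARG00000007277) was at 13.6, 16.8, 16.9 and 13.3 CPM at 18 hpf and at 2.39, 4.2, 4.81 and 3.81 CPM at 24 hpf. Every 24 hpf pool was below every 18 hpf pool (log2FC -1.98 ± 0.17, SE, FDR = 1.9e-11), and MYOD1 (-0.59) and MYOG (-0.90), which act after it, also fell. The fusion protein of myoblasts, myomixer (mymx, ENSDARG00000099437), had 19.4, 13.9, 16.4 and 15.14 CPM and then 4.84, 6.41, 4.06 and 4.86 CPM, again without overlap. Another fusion gene, the adhesion receptor jam2a, fell (log2FC -1.07, FDR = 1.5e-05), whereas the fusion gene MYMK was at 18.0 ± 1.88 and 17.5 ± 3.95 CPM and was not called. MEF2C at ENSDARG00000029764 and MEF2A, which act on muscle genes in later fibres, rose with log2FC of 0.97 and 0.70.

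Of 11 tested muscle chaperones, which help myosin to fold, 4 rose (36.4%) and 1 fell (9.09%), beside 13.1% and 11.7% over all genes. The median log2FC of the list was 0.44. HSPB8, a small heat shock protein of muscle, had 45.7, 42.1, 43.4 and 41.2 CPM at 18 hpf, then 85.9, 87.9, 74.4 and 82.5 CPM at 24 hpf (log2FC 0.94 ± 0.14, SE, FDR = 2.5e-06). The methyltransferase gene SMYD1, which is needed for myosin assembly, rose at ENSDARG00000091253 by 0.58. The myosin chaperone UNC45B was called lower by a small amount (log2FC -0.29, FDR = 0.064), but not without E+ 18 hpf replicates 1, 2 or 3 or E+ 24 hpf replicate 3 (FDR = 0.1 to 0.25). The muscle heat shock protein hsp90aa1.1 went from a mean of 718 to 709.7 CPM and was not called (FDR = 0.96).

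Of 24 tested heart genes, 12 rose and 4 fell, with a median log2FC of 0.84, beside shares of 13.1% and 11.7% over all genes. The TTN genes of this list are also counted in the fast muscle list, and its TNNI1 genes in the slow muscle list. The counts and the median are therefore not of heart tissue alone, and the part of skeletal muscle in them was not tested. The cardiac myosin light chain MYL7 (ENSDARG00000019096) was at 8.01, 9.53, 9.48 and 9.75 CPM at 18 hpf and at 25.4, 27.3, 28.3 and 28.0 CPM at 24 hpf. The spread within each group was small beside the distance between them, with a log2FC of 1.56 ± 0.17 (SE, FDR = 6.8e-09). Cardiac myosin heavy chains rose as well, MYH7 (ENSDARG00000079782) from 0.700, 1.17, 1.52 and 0.585 CPM to 6.68, 9.35, 8.37 and 7.26 CPM and myh6 by a log2FC of 1.99 ± 0.22 (SE, FDR = 6.9e-09). Natriuretic peptide genes, made by the working heart chambers, were called higher from few reads: nppa was read in 1 of the 4 pools at 18 hpf and had a mean of 1.18 CPM at 24 hpf, and nppb had means of 0.166 to 0.894 CPM. The members that fell were regulators of heart fields, GATA5 (-0.81), GATA6 (-0.63) and HAND2 (-0.58), together with the signal gene FGF10 at ENSDARG00000100475 (1.06 to 0.429 CPM), which was not called without E+ 24 hpf replicates 2 or 4 (FDR = 0.11). NKX2-5, the classic cardiac homeobox gene, was at 2.05 ± 0.688 and 2.25 ± 0.942 CPM and was not called.

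Presomitic mesoderm genes fell. Of 45 matched genes 42 were tested, 20 fell (47.6%), 6 rose (14.3%) and the median log2FC was -0.46. Over all genes 11.7% fell and 13.1% rose, so the share that rose was near that of all genes. The bHLH factor mesogenin (msgn1, ENSDARG00000070546), which commits tail bud cells to paraxial mesoderm, was at 181, 192, 194 and 198 CPM at 18 hpf and at 29.3, 28.5, 26.6 and 29.7 CPM at 24 hpf. The pools of each age lay close together, and the drop was 6.71-fold (log2FC -2.75 ± 0.10, SE, FDR = 1.7e-21). The posterior homeobox gene cdx4 (ENSDARG00000036292) had 72.9, 80.3, 67.6 and 75.1 CPM and then 15.4, 8.45, 12.8 and 14.1 CPM. T-box genes of the same tissue fell too: tbx16 (ENSDARG00000007329) had 41.4, 42.1, 39.0 and 41.3 CPM at 18 hpf against 9.28, 7.19, 8.12 and 9.52 CPM at 24 hpf, and tbx6 had a log2FC of -1.90 ± 0.13 (SE, FDR = 5.8e-14).

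Clock and border genes of the somites were among the members that fell. The core oscillator her7 (ENSDARG00000017917) was at 4.82, 4.13, 3.40 and 4.81 CPM at 18 hpf, then 0.682, 1.08, 0.501 and 1.48 CPM at 24 hpf, and its partner her1 had a log2FC of -1.94 (FDR = 0.0061). Genes that close a somite border, ripply1 (-0.86), ripply2 (-2.48), mespaa (-1.39) and mespab (-1.91), were called lower too. Signals and enzymes of the tail bud fell as well: fgf17 had a log2FC of -1.52, WNT5B of -1.60 and CYP26A1, which breaks down retinoic acid, of -0.99. Of the 6 members that rose, HOXB13, also counted in the posterior hox list, had the largest log2FC (3.73). The Notch ligand gene DLL1 at 2 loci (0.69 and 0.62), LFNG (0.44) and her15.1 (0.95), Notch genes that neural tissue also uses, rose too. The clock gene her12 (19.5 to 23.6 CPM, FDR = 0.21) and the tail bud factor tbxta (8.51 to 7.80 CPM, FDR = 0.66) were not called.

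Many hox genes, which give position along the body axis, fell. Of 22 tested genes of paralogous groups 1 to 8, 11 fell and 1 rose (median log2FC -0.47), and of 23 tested in the list of posterior groups, which also holds EVX2, 13 fell and 3 rose (-0.57). All 5 tested genes of group 9 fell (median -0.57), and each kept its call when any E+ 18 or 24 hpf pool was left out. All 4 of group 6 were called lower (median -0.64), but HOXB6 was not called without E+ 18 hpf replicate 1 or E+ 24 hpf replicate 3 (FDR = 0.11 to 0.13), HOXC6 at ENSDARG00000070343 not called without E+ 18 hpf replicate 2 (FDR = 0.1) and hoxb6b not called without E+ 18 hpf replicate 2 or E+ 24 hpf replicates 1, 2 or 4 (FDR = 0.11 to 0.35). The single tested gene of group 7, HOXB7 (ENSDARG00000056030), was at 28.2, 35.1, 25.6 and 29.5 CPM at 18 hpf and at 8.66, 12.7, 7.72 and 12.4 CPM at 24 hpf. The posterior gene HOXD10 (ENSDARG00000057859) had 16.8, 22.5, 14.6 and 17.7 CPM and then 8.66, 8.99, 7.52 and 7.12 CPM, and HOXA11 (ENSDARG00000104162) had 6.68, 7.42, 5.79 and 5.20 CPM and then 1.57, 2.88, 1.70 and 1.13 CPM. In all 3 genes the groups did not overlap, and the log2FC were -1.52, -1.15 and -1.77. The 3 posterior genes that rose were HOXB13, HOXC12 and hoxa13a, of the last groups. HOXB13 went from a mean of 0.359 to 4.75 CPM (log2FC 3.73, FDR = 1.9e-05), HOXC12 had 1.13 (FDR = 0.048) and hoxa13a had 1.04 (FDR = 0.067). In the same groups hoxd13a and HOXD12 fell (-1.06 and -1.17). These low-count calls were less firm: HOXC12 was not called without E+ 18 hpf replicates 2 or 4 (FDR = 0.12 to 0.13), hoxa13a not called without E+ 18 hpf replicates 3 or 4 or E+ 24 hpf replicate 2 (FDR = 0.12 to 0.31) and hoxd13a not called without E+ 18 hpf replicate 2 or E+ 24 hpf replicates 1 or 3 (FDR = 0.12 to 0.17). Without E+ 18 hpf replicate 4, 1 rather than 3 posterior genes was called higher.

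**Figure D2:**
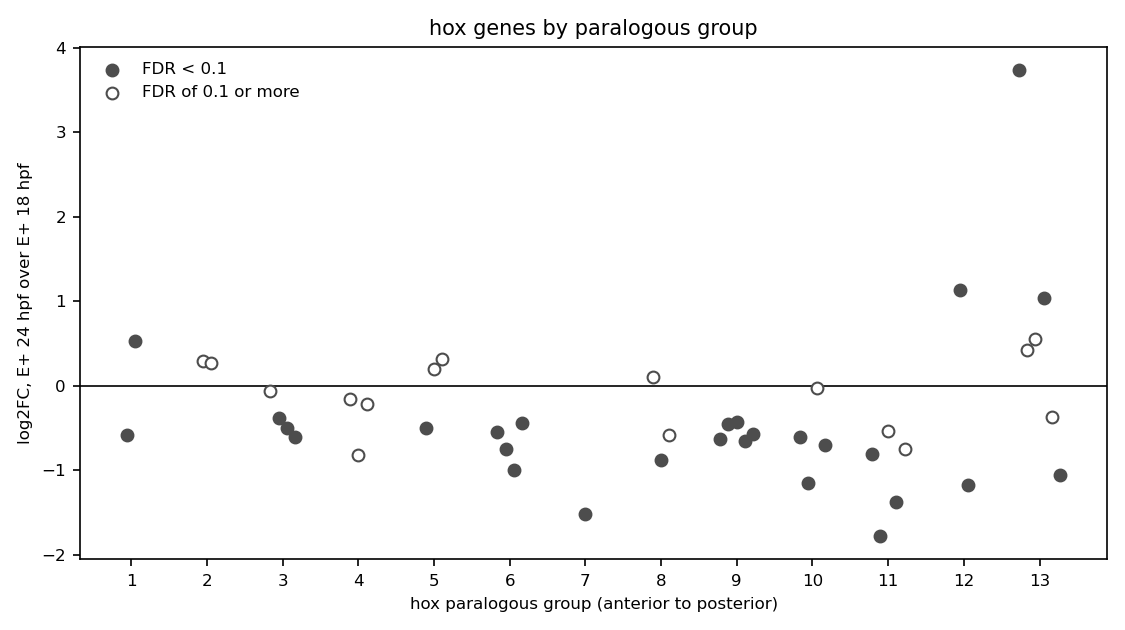
log2FC of E+ 24 hpf over E+ 18 hpf pools (vertical axis) for each tested hox gene, placed by paralogous group from anterior 1 to posterior 13 (horizontal axis), with filled points for FDR under 0.1. Every tested gene of groups 3, 4, 6, 7, 9, 10 and 11 lies below 0, and HOXB13 stands highest at 3.73.

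The lens list had the highest median of all lists among tested genes. Of 43 matched genes 29 passed the filter on low counts and were tested, 20 rose, 3 fell and the median log2FC was 3.17. Since a gene unread at 18 hpf could be tested only through its 24 hpf reads, the share and the median of tested members are not those of all lens genes. Without the filter the median over the 43 genes was 1.98, below the 2.13 of fast muscle. Beta crystallins, structural proteins of lens fibres, were among the genes of largest log2FC. CRYBB1 (ENSDARG00000068507) was at 0.155, 0.636, 0.434 and 0.585 CPM at 18 hpf and at 33.1, 38.5, 53.7 and 23.8 CPM at 24 hpf, with replicate 3 highest and replicate 4 lowest (log2FC 6.28 ± 0.30, SE, FDR = 4.7e-18). cryba1b (ENSDARG00000053875) had 0.233, 0.371, 0.651 and 0.650 CPM and then 28.4, 23.2, 41.6 and 24.3 CPM. The gamma crystallin crygm2d13 (ENSDARG00000057460) had no read in any 18 hpf pool and was at 4.5, 5.75, 12.1 and 1.76 CPM at 24 hpf. Against a floor of 3 counts over the 18 hpf group it was at least 133-fold higher, and crygm2d8 at least 111-fold higher. These gamma crystallins are tandem copies, among which reads may have been exchanged, or tallied apart as multimapping and not counted for any gene.

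Among lens membrane genes, the water channel MIP at ENSDARG00000013963 went from 0.219 to 2.16 CPM and at ENSDARG00000037285 from 1.84 to 7.02 CPM, and the fibre membrane gene LIM2 from 2.26 to 6.41 CPM. CRYBA2 at ENSDARG00000041925 was already read at 18 hpf (8.78 ± 1.5 CPM, mean ± SD) and had a log2FC of 1.91 ± 0.18 (SE, FDR = 1.6e-10). Among regulators of the lens placode, pitx3 (14.2 to 15.6 CPM, FDR = 0.61) and foxe3 (2.78 to 2.65 CPM, FDR = 0.92) were not called. Of 39 tested eye field and retina genes, 2 rose (5.13%) and 1 fell (2.56%), beside 13.1% and 11.7% over all genes (median log2FC 0.05). MAB21L1 (1.27) and PAX6 at ENSDARG00000103379 (0.32) rose, gdf6a fell (-0.71), and the retinal factors rx1 (22.7 to 26.5 CPM) and OTX2 (15.6 to 15.6 CPM) were not called. PAX6 was not called without E+ 24 hpf replicates 1 or 3 (FDR = 0.11 to 0.12), and gdf6a not called without E+ 18 hpf replicate 2 or E+ 24 hpf replicates 3 or 4 (FDR = 0.12 to 0.28).

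Pigment genes of all 3 lineages, which make melanin, pteridine and purine pigments, had members that rose. Of 25 tested, 12 rose, 2 fell and the median log2FC was 1.22. Without the filter on low counts 12 of 30 rose and 2 fell, with a median of 1.28. The melanosome enzyme gene TYRP1 was read at 2 loci, and TYRP1 (ENSDARG00000056151) was at 1.24, 1.22, 2.17 and 0.975 CPM at 18 hpf and at 36.0, 38.7, 43.0 and 33.4 CPM at 24 hpf. The lowest 24 hpf pool was more than 10 times the highest 18 hpf pool, and the log2FC was 4.76 ± 0.24 (SE, FDR = 1.8e-17). The melanosome matrix gene pmela (ENSDARG00000091298) had 5.75, 5.56, 8.54 and 5.59 CPM and then 30.6, 36.4, 34.8 and 32.9 CPM. The GTP cyclohydrolase gene gch2 (ENSDARG00000099101), the entry enzyme of pteridine synthesis in xanthophores, had 4.66, 4.61, 9.19 and 5.20 CPM at 18 hpf, then 54.9, 66.2, 54.5 and 52.9 CPM at 24 hpf (log2FC 3.28 ± 0.20, SE, FDR = 1.9e-15). The purine nucleoside phosphorylase pnp4a (ENSDARG00000057575), a marker of iridophores, had 0.155, 0.212, 0.145 and 0 CPM and then 5.80, 7.55, 8.37 and 4.44 CPM. In all of these genes the 2 groups were fully apart.

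Melanin genes were not uniform. DCT had 0.466, 1.11, 1.88 and 3.83 CPM at 18 hpf, then 4.98, 6.17, 7.02 and 5.29 CPM at 24 hpf, and its highest 18 hpf pool, replicate 4, was still below its lowest 24 hpf pool (log2FC 1.68 ± 0.37, SE, FDR = 8.0e-04). Tyrosinase (TYR), the rate-limiting enzyme of melanin synthesis, was at 0.466, 0.530, 0.362 and 0.390 CPM at 18 hpf and at 1.3, 1.80, 0.501 and 1.06 CPM at 24 hpf, overlapped between the groups and was not called (FDR = 0.23). MITF, the regulator of melanocyte fate, rose by a log2FC of 1.60, and the transporter gene SLC45A2 by 2.48. The members that fell were TFEC, a regulator of pigment progenitors (-1.32), and PAICS, an enzyme of purine synthesis used by every cell (-0.44).

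Neural crest regulators, from whose cells the pigment lineages come, were mixed. Of 28 tested, 9 fell (32.1%) and 5 rose (17.9%), beside 11.7% and 13.1% over all genes (median log2FC -0.12). The members that fell included snai1a (-0.76), snai1b (-0.61) and snai2 (-0.51), which promote migration, and PRDM1 (-0.87). TFAP2E (2.23), a factor of pigment progenitors, and DLX2 at ENSDARG00000079964 (0.80), a factor of crest in the pharyngeal arches, rose. SOX10 (56.2 to 45.9 CPM, FDR = 0.17) and FOXD3 (22.9 to 19.2 CPM, FDR = 0.18), the best known crest markers, were not called, though SOX10 was in a fit to the 8 pools alone (FDR = 0.022).

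Red blood cell genes rose. Of 39 tested, 20 rose (51.3%) and 4 fell (10.3%), beside 13.1% and 11.7% over all genes. The median log2FC was 0.52, or 0.33 without E+ 24 hpf replicate 1. Embryonic globins, the oxygen carriers, had the largest values. The beta globin HBE1 (ENSDARG00000087390) was at 66.7, 87.0, 154 and 101 CPM at 18 hpf and at 938, 591, 782 and 423 CPM at 24 hpf. Pools of the same age differed widely, but the groups did not overlap (log2FC 2.74 ± 0.22, SE, FDR = 7.8e-12). The alpha globin hbae3 (ENSDARG00000079305) had 183, 252, 351 and 253 CPM and then 1261, 706, 960.5 and 604 CPM, with replicate 1 highest and replicate 4 lowest at 24 hpf. HBE1 at ENSDARG00000113599 was called higher although its pools overlapped, and HBE1 at ENSDARG00000045143 and ENSDARG00000069734 were not called. Globin genes lie in tandem, and their reads may have been exchanged, or tallied apart as multimapping and not counted for any gene.

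Membrane and haem genes of red cells rose as well. The anion exchanger SLC4A1 at ENSDARG00000012881 had a log2FC of 2.04 ± 0.25 (SE, FDR = 1.2e-07), the spectrin SPTB of 1.44 and the Rhesus glycoprotein RHAG of 1.93. alas2 (ENSDARG00000038643), which makes the first intermediate of haem in red cells, was at 7.54, 8.0, 9.91 and 9.68 CPM and then 22.0, 12.5, 19.6 and 14.8 CPM, without overlap. Of 10 tested haem enzymes 3 rose, alas2 and UROD among them, and none fell, but UROD was not called without E+ 18 hpf replicate 4 or E+ 24 hpf replicate 1 (FDR = 0.1 to 0.14). Early blood regulators fell in the same interval, with log2FC of -0.83 for LMO2 and -0.99 for znfl2a. The erythroid master regulator gata1a was at 5.63 ± 1.09 and 5.17 ± 2.58 CPM and was not called.

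Vessel genes moved in both directions. Of 26 tested endothelial genes 7 rose (26.9%) and 6 fell (23.1%), beside 13.1% and 11.7% over all genes. The scavenger receptor stab2 (ENSDARG00000045748), of venous endothelium, was at 12.4, 13.8, 16.3 and 18.3 CPM at 18 hpf and at 40.6, 39.4, 32.7 and 34.9 CPM at 24 hpf, and rose (log2FC 1.28 ± 0.15, SE, FDR = 5.5e-08). The transcription factor npas4l (ENSDARG00000116511), which starts the blood and vessel lineages, was at 14.1, 10.3, 10.3 and 12.2 CPM and then at 3.62, 2.88, 5.77 and 3.38 CPM, and fell (log2FC -1.57 ± 0.19, SE, FDR = 5.2e-08). The junction cadherin cdh5 (0.59) and the Notch ligand dll4 of arteries (0.78) rose, and the venous receptor ephb4a fell (-0.91). The VEGF receptor kdrl, the usual vessel marker, had means of 4.2 to 6.33 CPM and was not called (FDR = 0.25, or 0.04 with the 8 pools alone). Without E+ 18 hpf replicate 2, 4 rather than 7 endothelial genes were called higher.

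Macrophage and neutrophil genes were read at low levels. Of 37 matched genes 23 were tested, 6 rose (26.1%) and 2 fell (8.7%), beside 13.1% and 11.7% over all genes. The filter on low counts removed 14, and a gene almost unread at 18 hpf could pass it only through reads of other groups, such as 24 hpf. These shares are therefore not those of all genes of the list. Without the filter 8 of the 37 rose and 2 fell. Lysozyme (lyz) went from a mean of 0.288 to 3.67 CPM and the leukocyte gene laptm5 from 0.111 to 0.913 CPM. The early regulator SPI1 was called lower, from 6.70 to 3.41 CPM (FDR = 0.093), but not without E+ 18 hpf replicates 1, 2 or 3 or any E+ 24 hpf pool (FDR = 0.11 to 0.19). It was not called with RLE scaling, DESeq2, a lane term or the replicate block either (FDR = 0.1 to 0.22). The defining macrophage gene MPEG1 at ENSDARG00000043093 (5.79 to 6.80 CPM) and the leukocyte gene LCP1 (0.621 to 0.694 CPM) were not called.

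Neuronal genes rose broadly. Of 87 matched genes of neuronal differentiation and the synapse 79 were tested, 53 rose and none fell, with a median log2FC of 1.02. Without the filter on low counts 52 of 86 rose, with a median of 1.01. The RNA-binding protein ELAVL4 (ENSDARG00000045639) of young neurons was at 65.6, 65.5, 58.1 and 55.1 CPM at 18 hpf and at 157, 173, 198 and 164 CPM at 24 hpf, and its groups did not overlap (log2FC 1.5 ± 0.13, SE, FDR = 2.1e-11). Its relative ELAVL3, which appears earlier in neurons, had a log2FC of 0.68 ± 0.11 (SE, FDR = 1.9e-05). The synthesis enzymes of the inhibitory transmitter GABA had the largest log2FC of the list: GAD2 (ENSDARG00000015537) had 1.24, 0.953, 1.01 and 1.36 CPM and then 6.14, 5.27, 8.47 and 5.64 CPM, and GAD1 and the vesicle transporter SLC32A1 had log2FC of 2.14 and 1.97.

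Genes of other transmitters rose too. The glutamate transporter SLC17A6 had a log2FC of 0.82 (FDR = 0.0014), the glycine transporter SLC6A5 of 0.65 (FDR = 0.0012) and the acetylcholine transporter SLC18A3 of 1.25 (FDR = 0.0039). CHAT, which makes acetylcholine, was at 9.99 ± 1.18 and 9.16 ± 1.56 CPM and was not called. Vesicle and release genes rose together, with log2FC of 1.81 for sypa, 1.76 for SV2A, 1.67 for CPLX2 and 1.33 for SNAP25 at ENSDARG00000020609. Axon genes followed: gap43 had 1.11 and MAP1B 1.33. SNAP25 at ENSDARG00000058117 stood at 4.91 ± 1.07 and 5.34 ± 1.05 CPM and was not called, and the lowest values of the list, -1.48 for mapta (FDR = 0.23) and -1.17 for CNTN1 (FDR = 0.32), did not pass either.

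The transcription factors that specify neurons rose as well. Of 46 tested, 27 rose, 1 fell and the median log2FC was 0.62. The filter on low counts removed 9 of 55 matched genes, so these values are not those of the whole list. Without the filter 26 of 55 rose and 1 fell, with a median of 0.54. The proneural factor ascl1b (ENSDARG00000101628) was at 15.9, 13.0, 20.3 and 19.4 CPM at 18 hpf and at 46.6, 44.1, 53.5 and 46.6 CPM at 24 hpf, and ONECUT1 (ENSDARG00000007982) at 46.8, 53.4, 46.7 and 42.8 CPM and then 128, 136, 161 and 131 CPM. Both were fully apart between the groups. NEUROD6, a late differentiation factor, went from 0.196 to 3.53 CPM. The forebrain factors TBR1 (1.3), DLX1 (0.85) and EOMES at ENSDARG00000006640 (1.27) also rose, and GATA3 was the member called lower (-0.30, FDR = 0.091), but not without E+ 18 hpf replicates 1, 3 or 4 or any E+ 24 hpf pool (FDR = 0.11 to 0.23). GATA3 was not called with RLE or TMM scaling or DESeq2 (FDR = 0.1 to 0.13) or with the 8 pools alone (FDR = 0.12). The motor and sensory neuron factor ISL1 was at 31.5 ± 0.494 and 30.7 ± 0.927 CPM and was not called (FDR = 0.85).

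Progenitor genes of the neural tube had smaller values. Of 41 tested, 16 rose (39%) and 4 fell (9.76%), beside 13.1% and 11.7% over all genes, and the median log2FC was 0.20. The fatty acid binding protein of radial glia FABP7 (ENSDARG00000007697) was at 21.3, 39.3, 36.4 and 38.5 CPM at 18 hpf and at 144, 131, 122 and 122 CPM at 24 hpf (log2FC 1.94 ± 0.16, SE, FDR = 9.9e-12). Notch targets and ligands of the ventricular zone, her4.1 (1.09) and dlb (1.21), rose, while HEY1 (-0.77) and HES1 (-0.50) fell. The general progenitor factors SOX2 (64.0 to 66.3 CPM, FDR = 0.77) and SOX3 (295 to 319 CPM, FDR = 0.24) were not called.

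Patterning genes of the midbrain-hindbrain boundary and hindbrain fell. Of 38 tested, 12 fell (31.6%) and 3 rose (7.89%), beside 11.7% and 13.1% over all genes (median log2FC -0.22). The rhombomere factor EGR2 (ENSDARG00000042826) was at 19.2, 15.5, 16.1 and 14.7 CPM at 18 hpf and at 3.96, 3.66, 3.66 and 2.96 CPM at 24 hpf, a 4.58-fold drop without overlap (log2FC -2.19 ± 0.18, SE, FDR = 4.7e-12). Other hindbrain and boundary genes that fell were her11 (-1.73), sp5l (-1.41), irx7 (-1.05), FGF3 (-0.82) and EN2 at ENSDARG00000038868 (-0.51). Several of these genes are also used in the tail bud or the ear. The boundary gene en1b (0.64) and the receptor gene EPHA4 at ENSDARG00000010767 (0.50) rose, and PAX2 at ENSDARG00000028148 was at 102 ± 2.58 and 88.2 ± 8.48 CPM and was not called (FDR = 0.12, or 0.057 with the 8 pools alone).

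Of 34 tested ear genes, 6 rose and 6 fell, 17.6% each way beside 13.1% and 11.7% over all genes. The otolith matrix gene stm (ENSDARG00000035694) was at 136, 130.1, 129 and 125 CPM at 18 hpf and at 59.9, 65.6, 59.7 and 54.7 CPM at 24 hpf, lower in every pool (log2FC -1.12 ± 0.12, SE, FDR = 8.7e-09). The otolith gene oc90 fell too (-0.71), and so did the claudin cldna (-1.59). ATOH1, which starts hair cells and also cerebellar neurons, rose (1.29, FDR = 0.0025), and TECTB, of the membrane over the hair cells, went from 0.280 to 1.69 CPM.

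Notochord genes rose more often than they fell. Of 50 tested notochord and floor plate genes, 21 rose (42%) and 8 fell (16%), beside 13.1% and 11.7% over all genes (median log2FC 0.21). The caveola gene CAVIN1 (ENSDARG00000076411) was at 2.88, 3.81, 4.48 and 4.16 CPM at 18 hpf and at 26.5, 18.2, 22.2 and 19.9 CPM at 24 hpf (log2FC 2.49 ± 0.18, SE, FDR = 4.5e-13), and caveolae are dense in notochord vacuolated cells. cavin4a, counted in this list and in the muscle list, had a log2FC of 3.42. The sheath collagens COL2A1 at ENSDARG00000069093 (0.67), COL9A2 (0.60) and col9a1b (0.82) rose. The early notochord regulator noto fell (-1.37), and FOXA2 (17.2 to 14.3 CPM) was not called. Hedgehog pathway genes, whose ligand comes from notochord and floor plate, had 4 members that rose (14.8%) and 6 that fell (22.2%) of 27 tested. The shares over all genes were 13.1% and 11.7%. The pathway's membrane effector SMO (-0.28) and transcription factor GLI3 (-0.40) fell. Without E+ 18 hpf replicate 1, or without E+ 24 hpf replicate 2, 1 rather than 4 hedgehog genes was called higher.

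Of 60 tested collagen and matrix genes, 27 rose (45%) and 17 fell (28.3%), beside 13.1% and 11.7% over all genes. Fibrillar collagen of skin and connective tissue rose, with COL1A1 (ENSDARG00000035809) at 64.1, 56.7, 69.9 and 61.5 CPM at 18 hpf, then 285, 299, 322 and 266 CPM at 24 hpf (log2FC 2.22 ± 0.11, SE, FDR = 1.4e-17). The other type I collagen genes col1a1a and COL1A2 had log2FC of 1.79 and 1.47. Fibronectin (FN1, ENSDARG00000006526), a matrix protein around forming somites, was at 86.8, 85.1, 68.6 and 86.0 CPM and then at 22.9, 25.6, 21.9 and 30.8 CPM, lower in every pool (log2FC -1.69 ± 0.12, SE, FDR = 7.0e-14). The collagen chaperone SERPINH1 at ENSDARG00000019949 fell, with a log2FC of -1.33 ± 0.12 (SE, FDR = 5.2e-11), and so did p4ha1a, a subunit of an enzyme that hydroxylates collagen (-1.01). Basement membrane genes were divided, with lamb4 (1.63) and lama4 (1.03) higher and NID2 (-0.59) lower.

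In the skin, some keratins fell and others rose. Of 50 tested epidermis genes, 16 rose (32%) and 10 fell (20%), beside 13.1% and 11.7% over all genes. The keratin krt99 (ENSDARG00000019365) was at 138, 159, 118 and 131 CPM at 18 hpf and at 18.2, 20.8, 18.1 and 18.8 CPM at 24 hpf, with a log2FC of -2.85 ± 0.12 (SE, FDR = 4.8e-20). The keratins krt92 (-1.36), krt17 (-1.12) and krt5 (-0.77) fell as well, and the plakin eppk1 (ENSDARG00000096359), which ties keratin filaments, had 87.0, 108, 81.7 and 93.1 CPM and then 22.0, 17.2, 16.5 and 19.5 CPM. krt1-19d (ENSDARG00000023082) went the other way, from 3.89, 7.79, 6.94 and 4.03 CPM to 24.1, 25.5, 24.6 and 20.1 CPM. The surface keratin krt4 rose slightly (0.48), and the basal regulator TP63 was at 79.7 ± 3.80 and 67.7 ± 4.21 CPM and was not called (FDR = 0.13, or 0.031 with the 8 pools alone). Actinodins, the fibre proteins of the fin folds, rose from almost no reads: and2 (ENSDARG00000079302) was at 0.0777, 0, 0.145 and 0.520 CPM at 18 hpf and at 5.53, 4.44, 11.0 and 3.67 CPM at 24 hpf (log2FC 5.03 ± 0.59, SE, FDR = 3.3e-08).

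Genes of ion-transporting cells of the skin rose. Of 31 tested ionocyte genes 13 rose (41.9%) and 2 fell (6.45%), beside 13.1% and 11.7% over all genes (median log2FC 0.29). The sodium pump subunit atp1a1a.2 (ENSDARG00000007739) was at 3.89, 4.03, 5.21 and 5.72 CPM at 18 hpf and at 25.03, 43.5, 33.2 and 29.2 CPM at 24 hpf (log2FC 2.80 ± 0.21, SE, FDR = 1.1e-12). ATP1B1 at ENSDARG00000076833 (1.83), atp1a1a.3 (1.41), the calcium channel TRPV6 (1.58) and the ionocyte factor foxi3b (1.07) rose. Part of this list is shared with other tissues, such as SLC4A1 with red cells. Kidney genes had 5 members that rose (15.2%) and 4 that fell (12.1%) of 33 tested, near the 13.1% and 11.7% over all genes. Of these genes lhx1a, which neurons also use, rose (0.95), and the pronephric genes CDH17 (10.1 to 11.8 CPM) and NPHS1 (4.69 to 5.11 CPM) were not called. Without E+ 18 hpf replicate 1, 3 rather than 5 kidney genes were called higher. Of 9 tested hatching gland genes 1 rose (11.1%), which was AGR2 (0.91). The hatching enzyme he1.1 was at 538, 490.2, 761 and 617 CPM at 18 hpf and at 553, 776, 607 and 673 CPM at 24 hpf, overlapping throughout (FDR = 0.72).

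Of 36 tested genes of the yolk syncytial layer, which packs yolk lipid into lipoproteins, 5 rose (13.9%) and 7 fell (19.4%). Over all genes the shares were 13.1% and 11.7%, so the share that rose was near that of all genes. The median log2FC of the list was 0.03. With the 8 pools alone 8 were called higher. The intestinal fatty acid binding protein gene FABP2 (ENSDARG00000006427) was at 347, 358, 424 and 393 CPM at 18 hpf and at 151, 208, 173 and 213 CPM at 24 hpf (log2FC -1.03 ± 0.12, SE, FDR = 3.6e-08), and FABP1 (-0.61) and the lipoprotein assembly gene MTTP (-0.82) fell with it. Apolipoprotein E genes moved apart: apoea (ENSDARG00000102004) had 7.93, 8.74, 7.88 and 7.41 CPM and then 15.6, 34.2, 37.7 and 22.3 CPM, while apoeb fell (-0.56, FDR = 2.3e-06). Apolipoproteins apoa1b, apobb.1 and apoa2 had log2FC of 0.13, -0.07 and 0.14 and were not called. TTPA, the tocopherol transfer protein that carries VitE, was under 1 CPM on average at both ages and was not called (0.56, FDR = 0.63).

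Of 38 tested liver, gut and pancreas genes, 10 rose (26.3%) and 4 fell (10.5%), beside 13.1% and 11.7% over all genes (median log2FC 0.24). Insulin, ins (ENSDARG00000035350), was at 5.13, 5.24, 3.62 and 4.03 CPM at 18 hpf and at 7.43, 12.2, 10.4 and 9.52 CPM at 24 hpf (log2FC 1.13 ± 0.33, SE, FDR = 0.012), and the hormones somatostatin (sst2, 1.69) and GCG (0.326 to 1.41 CPM) rose too. The plasma protein ceruloplasmin (CP) rose (1.97). Transferrin (tfa, ENSDARG00000016771), which the yolk cell and later the liver make, was at 607, 676, 652 and 594 CPM and then at 251, 489, 356 and 425 CPM, with replicate 1 lowest at 24 hpf, and fell (log2FC -0.73 ± 0.12, SE, FDR = 2.4e-05).

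Glycolysis genes rose, muscle and neuronal forms of the enzymes among them. Of 33 tested, 17 rose and 2 fell (median log2FC 0.67). Aldolase A (ALDOA, ENSDARG00000034470) was at 88.1, 70.6, 103 and 86.7 CPM at 18 hpf and at 389, 389, 427 and 385 CPM at 24 hpf (log2FC 2.19 ± 0.15, SE, FDR = 1.3e-13). The pyruvate kinase PKM (ENSDARG00000099860) had 0.233, 0.265, 0.506 and 0.0650 CPM and then 5.12, 9.83, 12.8 and 9.52 CPM. PGAM2 (3.23), ENO3 (1.53) and PFKM at ENSDARG00000060797 (2.82), enzymes of muscle, and eno2 (1.32) and ALDOC (1.63), enzymes of neurons, rose. The ubiquitous HK1 (123 to 109 CPM, FDR = 0.2) was not called. Fast muscle genes rose in the same pools, 41 of 50, and their part in this result was not tested.

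Of the 13 protein genes of the mitochondrial genome, 9 rose and 2 fell, all by less than 2-fold. Without E+ 18 hpf replicate 2, 6 were called higher and 0 lower, and without E+ 24 hpf replicate 1, 8 and 1. MT-ATP6 (ENSDARG00000063911), a subunit of the ATP synthase, was at 1820.5, 1512, 1702 and 1894 CPM at 18 hpf and at 3069, 2469, 2536 and 2660.0 CPM at 24 hpf (log2FC 0.63 ± 0.13, SE, FDR = 5.1e-04). The calls of MT-ND5 (-0.34) and mt-atp8 (-0.69) as lower were less firm, since MT-ND5 was not called without E+ 18 hpf replicates 1 or 2 or E+ 24 hpf replicates 3 or 4 (FDR = 0.14 to 0.17) and mt-atp8 not called without E+ 18 hpf replicate 2 or E+ 24 hpf replicates 1, 3 or 4 (FDR = 0.11 to 0.43) or by DESeq2 (FDR = 0.14). The gene mt-atp8 overlaps MT-ATP6 on the mitochondrial genome, so that their reads are hard to assign. The share of counts taken by the most abundant gene was 30.8% at 18 hpf and 26.4% at 24 hpf. With that gene left out of the fit, 9 mitochondrial genes were again called higher and 2 lower, and the median log2FC was 0.37 both with and without it. The scaling trims genes of extreme level, so leaving out this gene could hardly change these values (median shift over all genes 0.001). Whether its share bears on the mitochondrial genes was not tested.

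Among the 12 genes of lowest log2FC were a pair of enzymes of purine breakdown, a pathway for which no list was made. Urate oxidase (uox, ENSDARG00000007024) was at 14.4, 13.7, 13.6 and 11.8 CPM at 18 hpf and at 1.3, 2.82, 1.3 and 3.24 CPM at 24 hpf (log2FC -2.64 ± 0.22, SE, FDR = 9.5e-12). The next enzyme of the same pathway, 5-hydroxyisourate hydrolase (urahb, ENSDARG00000089331), was at 6.45, 12.3, 13.5 and 7.41 CPM and then at 0.546, 2.52, 1.60 and 1.76 CPM (log2FC -2.61 ± 0.33, SE, FDR = 1.5e-07). Only genes whose pools did not overlap could be among these 12, so both genes were lower in every 24 hpf pool by that rule. Their means at 12 hpf were 24.1 and 46.2 CPM (4 E+ pools). The bile salt transporter abcb11a (-2.05) and the matrix gene emilin3a (-2.0) were among the other genes of lowest log2FC.

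Of 33 tested antioxidant genes, 6 rose (18.2%) and 3 fell (9.09%), beside 13.1% and 11.7% over all genes (median log2FC 0.13). The peroxiredoxin prdx1 (ENSDARG00000058734) was at 17.6, 15.0, 15.9 and 14.0 CPM at 18 hpf and at 46.1, 33.1, 40.3 and 40.7 CPM at 24 hpf (log2FC 1.36 ± 0.16, SE, FDR = 2.8e-08), and prdx6 (0.90), SOD2 (1.88) and the regulator NFE2L2 (0.60) rose. GCLC, the limiting enzyme of glutathione synthesis, fell (-0.51, FDR = 2.5e-04), and gpx4a, which reduces lipid peroxides, fell too (-0.40). Catalase (CAT), SOD1 and GPX4 had log2FC of 0.44, 0.27 and 0.04 and were not called.

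Of 53 tested DNA replication genes 6 rose and 4 fell, and of 58 mitosis genes 5 rose and 6 fell, beside shares of 13.1% and 11.7% over all genes. PCNA was at 560.3 ± 31.3 and 620.1 ± 48.2 CPM, MCM5 at 233 ± 24.5 and 260.5 ± 28.2 CPM and the mitotic kinase CDK1 at 40.2 ± 3.85 and 46.1 ± 2.2 CPM, and none of the 3 was called. The chromatin gene hmgb2b rose (0.82, FDR = 1.6e-06). Leaving out single pools lowered some of these counts: 2 replication genes were called higher without E+ 24 hpf replicate 1, 2 were called lower without E+ 24 hpf replicate 3, and mitosis genes called lower were 2 without E+ 18 hpf replicate 2 or E+ 24 hpf replicate 3 and 3 without E+ 24 hpf replicate 4. Cell cycle exit genes had 5 members that rose and 5 that fell of 27, or 3 that fell without E+ 24 hpf replicate 3. Ribosomal protein genes had 3 that rose and 2 that fell of 79 tested, with a median log2FC of 0.03. The number that rose was 1 without E+ 18 hpf replicate 1 or 2, and 5 without replicate 3, with RLE or TMM scaling, with DESeq2 and with the 8 pools alone.

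Some germ cell genes fell. Of 17 tested germ cell genes 4 fell (23.5%, beside 11.7% over all genes) and none rose. The germ plasm gene DDX4 (-0.64, FDR = 0.0099) was among those that fell. Of 35 clock genes 9 rose (25.7%) and 3 fell (8.57%), beside 13.1% and 11.7% over all genes. Among them nfil3-5 (0.77) rose, and bmal2 (-0.72) and cry5 (-0.79) fell. Pools of 2 ages are also pools of 2 hours of the day if spawning was at a common hour, so that age and clock time cannot be told apart. Among the most abundant genes, the nuclear RNA malat1 (ENSDARG00000099970) was at 15533, 15822, 17021 and 16032 CPM at 18 hpf and at 20667, 21091, 24216 and 20331 CPM at 24 hpf (log2FC 0.42 ± 0.08, SE, FDR = 1.4e-04), and the elongation factor eef1a1l1 was not called (-0.03, FDR = 0.8). ngs (ENSDARG00000054321), a gene named for the notochord surface, was among the 12 of largest log2FC, with 0.544, 0.795, 1.81 and 0.910 CPM at 18 hpf, then 41.8, 49.9, 58.6 and 35.7 CPM at 24 hpf.

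The same interval was then read in the E– pools, which share no embryo with the E+ pools though a common estimate of the spread was used. In E– pools 2199 genes (11.2%) were higher and 2079 (10.6%) lower at 24 hpf. Of the 2566 genes higher in E+ pools, 1582 were called higher in E– pools too, which is 61.7% of the E+ list and 71.9% of the E– list, and 1 was called lower. Of the 2297 genes lower in E+ pools, 1402 were also called lower, 61% and 67.4% of the lists, and 3 were called higher. Fast muscle had 44 members higher and none lower in E– pools, lens had 20 and 2, neuronal genes had 52 and 1, presomitic mesoderm had 6 and 18, and the posterior hox list had 1 and 12. Of single genes, the log2FC in E– and E+ pools was 6.65 and 6.97 for pvalb1, -2.83 and -2.75 for msgn1, and -2.38 and -2.19 for EGR2.

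**Figure D3:**
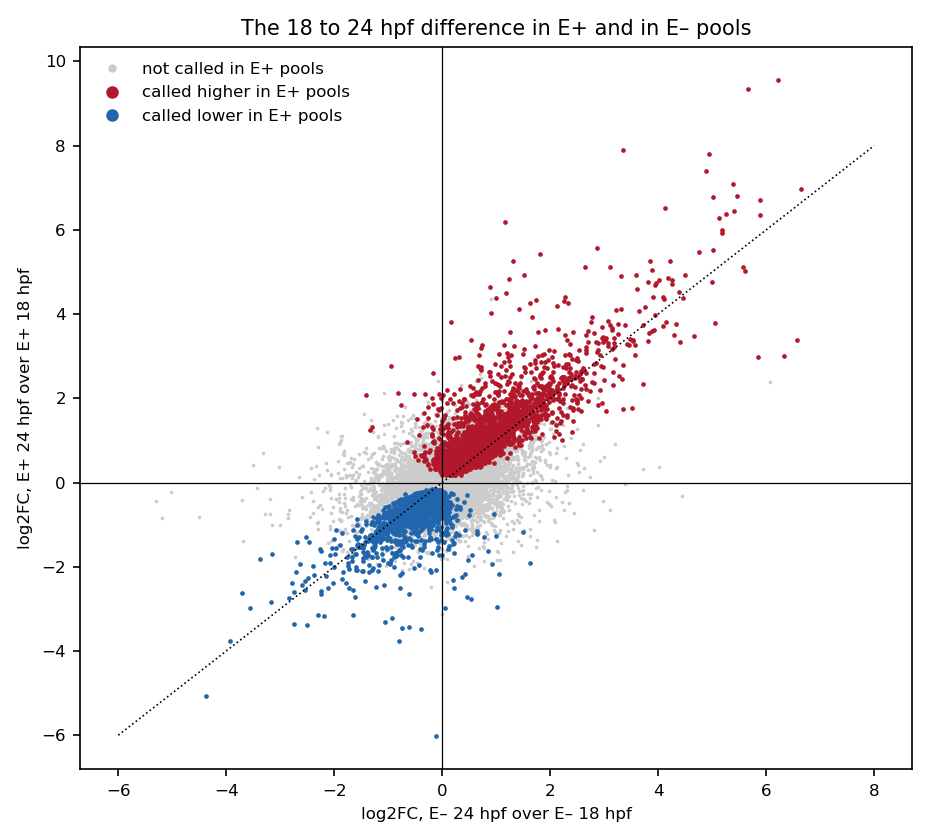
log2FC of 24 hpf over 18 hpf in E– pools (horizontal axis) and in E+ pools (vertical axis) for each of 19597 tested genes, coloured by the call in E+ pools, with a dotted line of equal change. Of the genes called in E+ pools, 95.4% of those higher and 95.2% of those lower have the same sign in E– pools.

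Whether the change differed between E+ and E– embryos was tested as an interaction. No gene was called (0%), and 925 of 19597 had an unadjusted p under 0.05 in edgeR's quasi-likelihood test, with 0 called and 1031 at an unadjusted p under 0.05 in DESeq2. By chance alone about 1 in 20 genes would have such a p. The 4 genes with a symbol and the smallest p were cited4a, tia1l, CC2D1B and nfkbiaa. The transcriptional co-activator gene cited4a (ENSDARG00000035990) was at 73.8, 71.5, 89.7 and 105 CPM and then 60.6, 54.4, 50.5 and 54.4 CPM in E+ pools, a log2FC of -0.63 against 0.32 in E– pools (interaction FDR = 0.608). For the NF-kB inhibitor nfkbiaa the log2FC was -2.07 in E+ and -0.23 in E– pools (interaction FDR = 0.608). The RNA-binding gene tia1l had 0.56 and -0.15, and CC2D1B had -0.30 and 0.45, and in E+ pools CC2D1B was not called without E+ 18 hpf replicates 2 or 4 or E+ 24 hpf replicates 2, 3 or 4 (FDR = 0.11 to 0.24) or with RLE or TMM scaling or DESeq2 (FDR = 0.1 to 0.11). None of these differences passed the adjustment over all genes, which does not show that the E+ and E– embryos changed alike.

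The values were set beside those of the interval before, 12 to 18 hpf. Both intervals use the same 4 E+ pools at 18 hpf, whose errors move the 2 differences in opposite directions, so no test links them. From 12 to 18 hpf 4475 genes (22.8%) were higher and 4135 (21.1%) lower. The fast muscle list had a median log2FC of 2.43 in the earlier interval and 2.19 in the later. Within it, myhz1.1 had 3.21 and then 4.16, whereas pvalb1 had 0.14 (FDR = 0.79) and then 6.97, and TNNT3 at ENSDARG00000068457 had -0.20 (FDR = 0.32) and then 4.53. The lens list had a median of 0.07 and then 3.17 over the tested genes, or 1.98 in the later interval without the filter on low counts, through which some members passed by their 24 hpf reads. The medians were 0.43 and then 1.22 for the pigment list and 1.15 and then 1.02 for the neuronal list.

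Other genes were called in opposite directions. The fusion genes mymx and jam2a were higher at 18 than at 12 hpf (3.39 and 2.54) and lower at 24 than at 18 hpf (-1.68 and -1.07). The posterior hox list had a median of 1.24 and then -0.57, and 16 of 23 higher in the earlier interval against 13 of 23 lower in the later. HOXA11 at ENSDARG00000104162 had 2.03 and then -1.77, and HOXD10 1.21 and then -1.15. Presomitic mesoderm genes were lower at each step, with medians of -1.07 and -0.46: msgn1 had means of 567, 191 and 28.5 CPM at 12, 18 and 24 hpf, and cdx4 of 298, 74.0 and 12.7 CPM. Ribosomal protein genes, of which 77 of 79 were higher at 18 than at 12 hpf, had 3 higher and 2 lower members from 18 to 24 hpf.

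**Figure D4:**
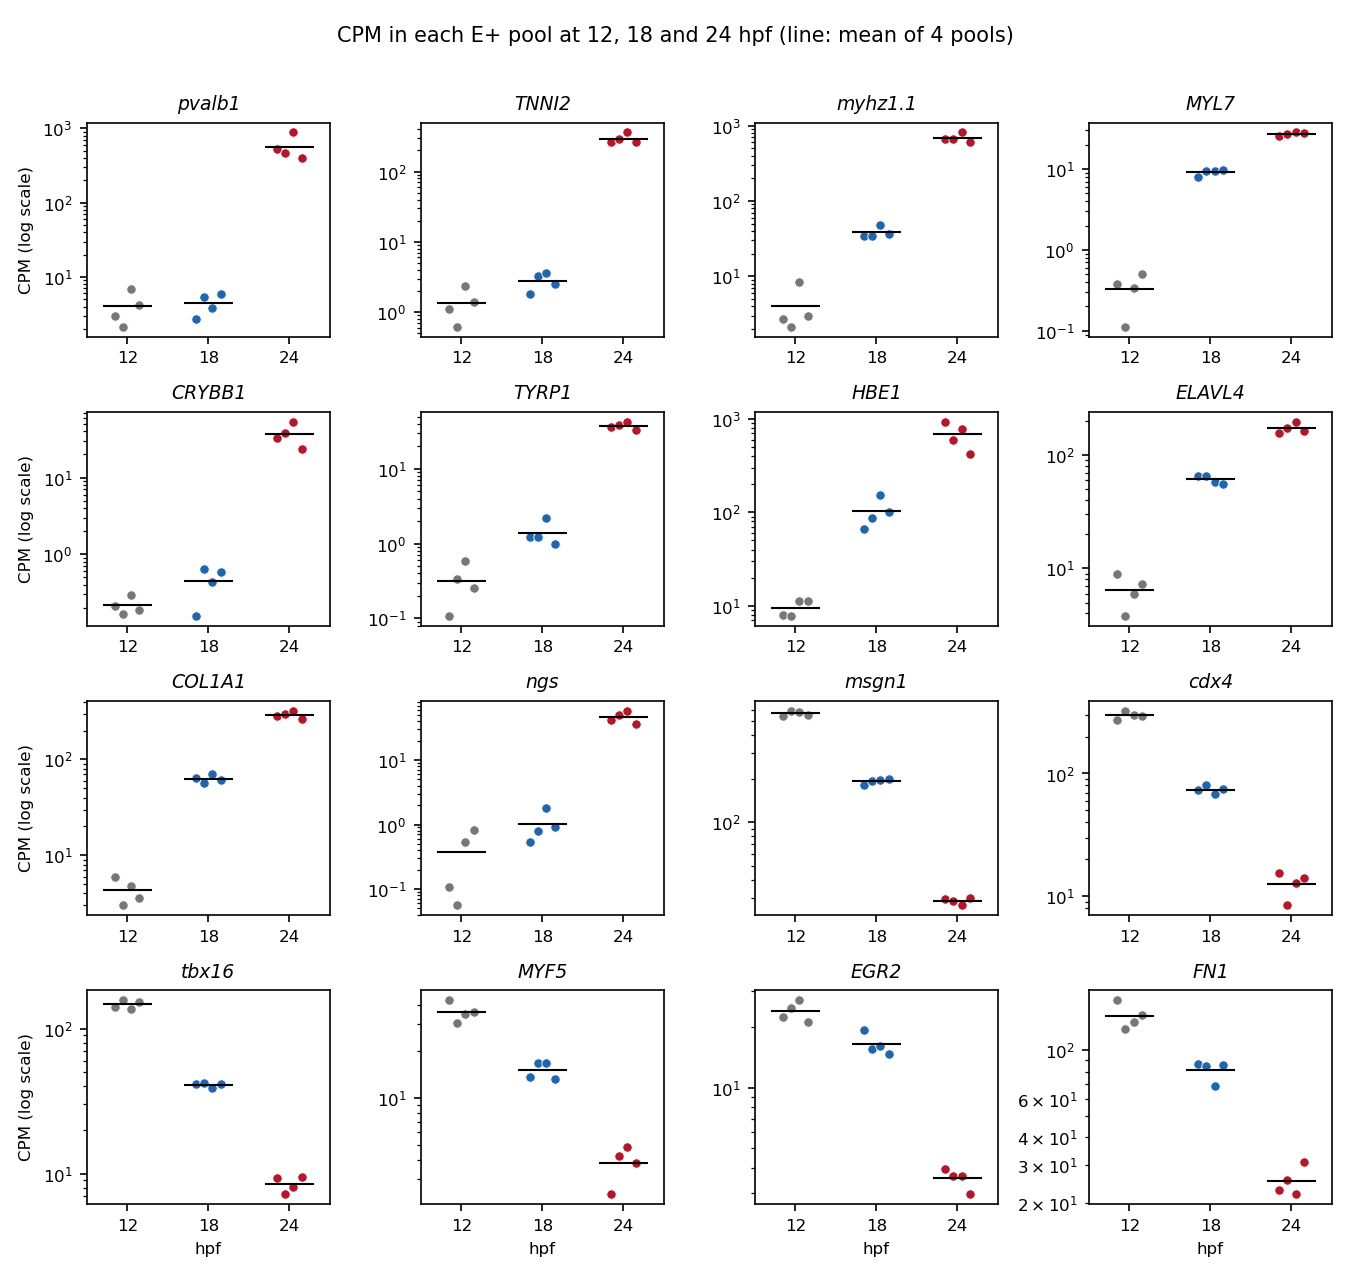
CPM on a log scale (vertical axes) of 16 genes in each E+ pool at 12, 18 and 24 hpf (horizontal axes), 4 pools a time point, with a line at their mean. The first 10 genes lie higher at 24 than at 18 hpf and the last 6 lie lower, with pvalb1 at 2.72 to 5.91 CPM at 18 hpf and 394 to 882 CPM at 24 hpf.

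**Figure D5:**
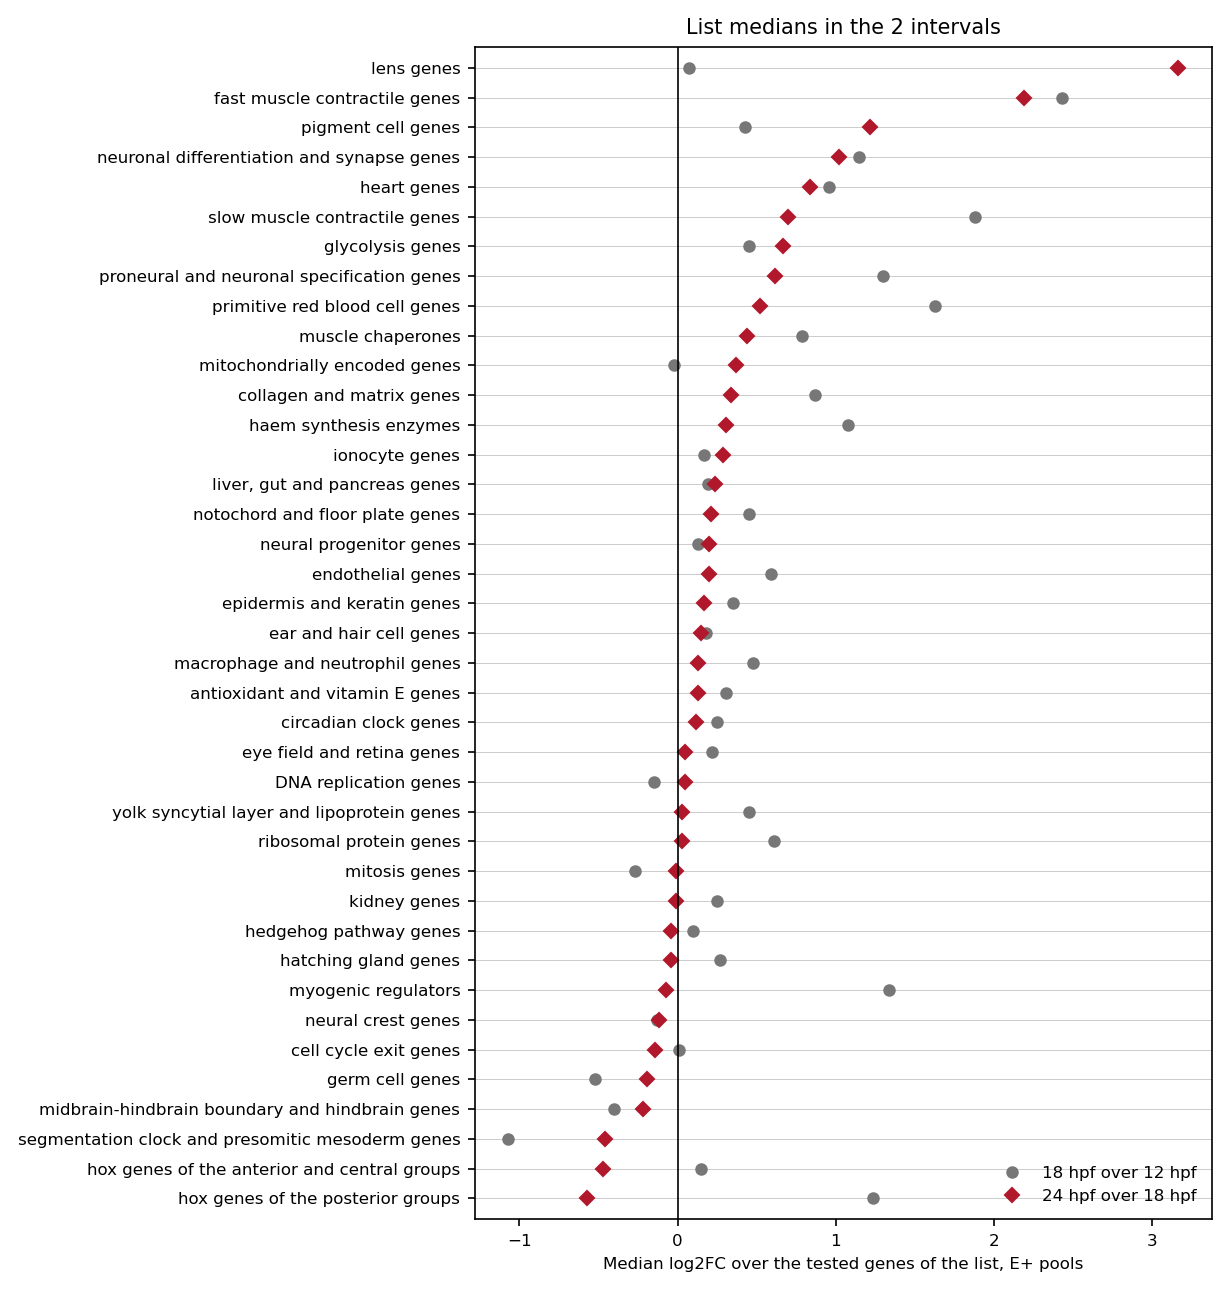
Median log2FC over the tested genes of each list in E+ pools (horizontal axis), for 18 over 12 hpf (grey circles) and 24 over 18 hpf (red diamonds), which share the 18 hpf pools. The posterior hox list goes from 1.24 to -0.57, and the lens list from 0.07 to 3.17, a value over the genes that passed the filter (1.98 without it).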

How the data were processed

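Total RNA of pools of 10 embryos was made into 3′ poly(A)-primed QuantSeq libraries and sequenced as single reads on lanes 7 and 8. According to the study's methods and processing notes, the authors checked reads with FastQC 0.11.5, trimmed them with bbduk and aligned them to GRCz11 with STAR 2.7.3a, and the deposited values are STAR's raw counts of reads per Ensembl gene, in 1 table of all 24 pools. Whether counting used strand is not given in the sources used here. Overlapping and antisense genes, and near-identical copies such as the globins, gamma crystallins, fast myosins, hatching enzymes and keratins, are therefore uncertain. The 4 tally lines of the table were left out of library sizes and tests. In the 8 pools unmapped reads were 8.07% to 13.2%, multimapping reads 5.65% to 7.58%, reads outside genes 24.0% to 28.9% and ambiguous reads 1.40% to 1.50%.

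Counts of the 24 pools in 6 groups (E+ and E–, at 12, 18 and 24 hpf) were fitted together in edgeR 4.0.16 (limma 3.58.1, R 4.3.3), with TMMwsp scaling and the quasi-likelihood F-test, and the Benjamini–Hochberg adjustment ran over all genes tested. Of 32520 genes listed, 3411 had no read and 12923 in all were removed by filterByExpr. The study's text mentions filtration without giving its rule, so that this filter may not be the authors'. The SE of a log2FC is its size over the square root of F. The design had no replicate block, since pools of the same number in the 2 ages did not deviate together (correlations -0.008, 0.071, 0 and 0.03); numbers 1 and 2 ran on lane 7 and numbers 3 and 4 on lane 8. All replicate pairs differed by more than sampling noise (chi-square over degrees of freedom 4.95 to 12.1).

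Symbols came from a gene name table that covered 29201 identifiers, 6136 of which share a symbol, and aliases were added once the files could be read. The comparison, the 39 gene lists (1327 symbols, 48 unmatched, 1347 genes) and the tests were chosen with earlier results of these data known. Named genes are the 12 of largest and 12 of lowest log2FC with a mean of at least 5 CPM and no overlap, the 5 most abundant at each age, called members of the lists with pool values for up to 4 each, well-known members that were not called, known stage markers, and the 4 of smallest interaction p; a few of them are not reported here. Alternatives were no filter, RLE and TMM scaling, the most abundant gene left out, DESeq2 1.42.0, a lane term, a replicate block, the 8 E+ pools alone, other thresholds and each pool left out; counts per gene list under these settings were added after seeing the data.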

Additional observations from a re-analysis of the deposited data

Results flagged for a closer look

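Values of a gene or library measure in the 4 pools of 1 age were examined for a single pool far from the other 3. Of 160 such sets of 4 values, 11 had such a pool, where chance would give about 1 in 20. The sets come from the same 8 pools and are not independent, and their number was not tested against chance. At 18 hpf, E+ replicate 3 stood apart for myhz1.1 (high, at 48.3 CPM), gch2 (high, at 9.19 CPM), pmela (high, at 8.54 CPM) and FN1 at ENSDARG00000006526 (low, at 68.6 CPM). E+ 18 hpf replicate 1 stood apart for MYL7 (low, at 8.01 CPM) and FABP7 at ENSDARG00000007697 (low, at 21.3 CPM), and replicate 4 for tbx6 (high, at 43.7 CPM). E+ 18 hpf replicate 2 had 13.2% unmapped reads. At 24 hpf, E+ replicate 3 stood apart for TNNT3 at ENSDARG00000068457 (high, at 311 CPM) and ALDOA at ENSDARG00000034470 (high, at 427 CPM), and replicate 2 for gch2 (high, at 66.2 CPM). The cause was not tested.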

How the results depend on the processing

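The 4863 genes called between E+ 18 and 24 hpf became 2376 at FDR under 0.01 and 1587 with a log2FC of at least 1 in size. At FDR under 0.01 the E– interval had 1921 and the 12 to 18 hpf interval 5487. Without a filter on low counts the interaction had 4 genes, and leaving out single pools it had 0 to 1 (1 without E+ 24 hpf replicate 1), by construction with other genes or fewer pools. Leaving out each E+ pool of the comparison gave 3889 (without E+ 18 hpf replicate 2) to 4492 called genes. With the replicate block 4801 genes were called (2524 higher), and 0 for the interaction with 897 at an unadjusted p under 0.05, and of the named genes SPI1 lost its call (FDR = 0.11). DESeq2 called 5112 and the fit to the 8 E+ pools 5464. The share of higher among called genes lay between 50.8% and 56%. Of 341 genes that the rule for named genes picks, 291 were called, 0 changed direction under 16 settings, 27 lost the call under some setting, each of them when a pool was left out, and 12 gained it, 7 of these with the 8 E+ pools alone. Of 4863 calls, 4348 were also made without a filter, 4752 by DESeq2 and 3707 without E+ 18 hpf replicate 2.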
